A study of Rattus norvegicus with 44 samples.

Results

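The kidney cortex of male rats labelled homozygous (Homo) at Xdh was compared with that of males labelled heterozygous (Het) at postnatal day (PND) 21. Xdh encodes xanthine dehydrogenase, the enzyme that turns hypoxanthine to xanthine and xanthine to urate at the end of purine breakdown. The comparison holds 3 libraries labelled PND21_Homo and 4 labelled PND21_Het, each made from 1 animal, and covers the genes with FPKM (reads per gene, scaled to the length of the gene and the depth of the library) of at least 1 in 3 or more of these 7 libraries. That is 14359 of the 32545 genes in the table, and 10658 of the genes left out were at 0 in all 7. Of the genes tested, 293 passed only through Homo libraries, with every Het library below 1 FPKM, and 165 only through Het libraries. Such genes had to differ to be included, so counts of called list members below describe the lists and are not evidence for them. The same holds for the p-values of such genes. Among those named below are Fgg, Il19, Il24, Il6, Il11, Reg3g, Mmp7, Cxcl6, Cd163, Cd3e, Trpv6 and Egr2, which passed through Homo. Klk1c2 and Klk1c10 passed through Het. Next to the limit, Acta1 held, as the lowest of its 3 highest values, 1.058 FPKM and was tested, and Trib3, at 0.949, was not.

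The study sequenced poly-A RNA from kidney cortex at PND0, 5, 15 and 21 in WT, Het and Homo males, 44 libraries in 12 groups, and its title concerns Xdh and the maturation of rat kidneys. Whole litters were collected and genotyped, and 1 kidney of each animal was frozen for molecular work. No treatment is named for any group. The 3 WT libraries of PND21 serve as a reference level, and 4 Homo, 4 Het and 4 WT libraries of PND15 as an earlier age. The kind of Xdh allele that the Homo and Het groups carry, the strain and which litter an animal came from are not given in the sources used here, so a litter shared within a group cannot be told apart from its genotype.

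The proximal tubule reabsorbs most of what the glomerulus filters and lives on fatty acid oxidation. When its cells are injured they put the receptor Havcr1 (KIM-1) on their surface, lose transporters and release cytokines. Members of the IL-6 and IL-10 cytokine families signal through JAK kinases to the transcription factor STAT3, which drives acute phase genes such as the 3 chains of fibrinogen, best known from the liver.

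Xdh itself did not separate the libraries labelled Homo from those labelled Het at this age. It held 13.5, 16.6 and 18 FPKM in the Homo libraries, 17.9, 9.7, 12.2 and 13 in the Het libraries and 22.3, 24.9 and 25.4 in the WT libraries. The Homo and Het libraries overlap, and PND21_Het replicate 1 lies at the top of its group, above 2 of the 3 Homo libraries. The difference was 0.29 ± 0.17 on the log2(FPKM + 1) scale (Homo minus Het, ± SE), with an adjusted p of 0.193 by limma. A two-sided exact permutation test over 35 splits gave p = 0.2, where 0.0286 is the smallest possible. The mean of the group labelled homozygous was therefore not below that of the group labelled heterozygous. It passed the test as higher in Homo with the libraries rescaled to equal sums (TPM; 0.52 log2, adjusted p = 0.0302), with array weights (0.38, 0.0352) and without PND21_Het replicate 1 (0.43, 0.0201). Every direction below is thus drawn between libraries labelled Homo and libraries labelled Het, whatever their Xdh transcript level. FPKM counts reads over the whole gene and does not show whether a transcript can make the enzyme.

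The difference between the libraries reached much of the transcriptome. Of the 14359 genes, 6267 passed limma at a Benjamini-Hochberg adjusted p under 0.05, which is 43.6% of those tested. In the Homo libraries 3067 genes were higher (21.4%) and 3200 lower (22.3%), and rose and fell are used below for these genes alone. Changes of at least 1 log2 unit numbered 887 up and 585 down, and changes of at least 2 numbered 198 up and 67 down. The median over all genes was 0.01 log2 with the values as deposited. With TPM, which moves that median to 0.23 log2, 5898 genes rose and 1689 fell, so that 77.7% of the calls were rises against 48.9% with the values as deposited, and 146 of the 6267 genes turned their direction. The Homo and Het libraries did not overlap in 48.3% of all genes (24.2% higher, 24.1% lower). Against WT, the Homo libraries differed in 5397 genes (37.6%), a comparison that shares the Homo libraries with this one, and Het differed from WT in 0 genes by limma (704 at an unadjusted p under 0.05).

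The reads counted on genes were 13568582 to 16993071 per library (median 16262409). Mitochondrial transcripts took 7.25 ± 0.27% of the reads in Homo (SD, n = 3), 10.9 ± 0.59% in Het (n = 4) and 10.7 ± 0.54% in WT (n = 3), with no overlap between Homo and Het (two-sided exact permutation p = 0.0286, the smallest possible, and 0.0286 adjusted over 3 summaries). PND21_Homo replicate 1 stands apart from the other Homo libraries: chi-square per degree of freedom was 26.2 and 29.0 against them and 8.31 between those. Without it 5039 genes were called, 4811 of them among the 6267. All 3 Homo libraries and 1 of 4 Het libraries come from animals whose titles hold a number of 100 and above, a number with no stated meaning, and a term for it left 4738 calls, 4344 of them shared. Of the genes named here, that term ended the calls of Aox1, Aqp2, Cfd, Lrp2, Mocs2, Pnp, Slc12a1 and Umod, as given beside each. Kidney identity markers were present in every library, with Umod at 773 ± 296 FPKM in Homo and 1305 ± 233 in Het and Slc34a1 at 685 ± 299 and 1979 ± 288 (mean ± SD, n = 3 and 4, as in all such pairs below). In such bulk libraries fewer cells of a type and less RNA per cell cannot be told apart.

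Promoters are shown for 5 genes of the cytokine and fibrinogen group, picked by family and not by size of change. Genes with larger rises than some of these, Havcr1 among them, are not shown. As all 5 runs shown hold a motif, the choice is not evidence for either motif. Each run holds 250 bases before to 50 after the start site in the RefSeq annotation of GRCr8, read 5′ to 3′ on the strand of the gene. Capitals mark the STAT3 site TTCNNNGAA, which reads the same on both strands, and the IL-6 response element CTGGGAA, searched on both strands.
Fgg, chr2:170652833-170653132, plus strand: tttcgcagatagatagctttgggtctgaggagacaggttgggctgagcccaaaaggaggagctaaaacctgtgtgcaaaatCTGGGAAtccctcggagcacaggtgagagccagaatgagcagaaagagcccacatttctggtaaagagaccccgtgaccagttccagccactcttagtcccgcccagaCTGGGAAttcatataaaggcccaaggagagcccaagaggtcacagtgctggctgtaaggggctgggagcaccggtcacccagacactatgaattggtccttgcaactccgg
Fgb, chr2:170700826-170701125, minus strand: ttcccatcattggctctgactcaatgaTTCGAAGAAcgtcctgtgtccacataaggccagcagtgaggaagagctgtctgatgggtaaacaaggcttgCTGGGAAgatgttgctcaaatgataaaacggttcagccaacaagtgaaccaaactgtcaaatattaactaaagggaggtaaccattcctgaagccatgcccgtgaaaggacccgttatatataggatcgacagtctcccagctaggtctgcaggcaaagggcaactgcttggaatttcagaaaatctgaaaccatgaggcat
Fga, chr2:170671919-170672218, plus strand: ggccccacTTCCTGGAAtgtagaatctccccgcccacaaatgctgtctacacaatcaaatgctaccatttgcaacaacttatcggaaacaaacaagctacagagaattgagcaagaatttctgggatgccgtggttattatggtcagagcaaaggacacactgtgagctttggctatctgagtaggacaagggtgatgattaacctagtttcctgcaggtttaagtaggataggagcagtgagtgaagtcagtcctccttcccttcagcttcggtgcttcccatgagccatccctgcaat
Il19, chr13:44958665-44958964, minus strand: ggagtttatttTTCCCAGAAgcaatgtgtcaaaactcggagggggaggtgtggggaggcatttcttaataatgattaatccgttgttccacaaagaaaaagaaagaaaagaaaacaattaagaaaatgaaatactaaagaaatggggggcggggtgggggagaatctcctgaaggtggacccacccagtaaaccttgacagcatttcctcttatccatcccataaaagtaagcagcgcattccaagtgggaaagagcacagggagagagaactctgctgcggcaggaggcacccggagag
Il24, chr13:44910711-44911010, minus strand: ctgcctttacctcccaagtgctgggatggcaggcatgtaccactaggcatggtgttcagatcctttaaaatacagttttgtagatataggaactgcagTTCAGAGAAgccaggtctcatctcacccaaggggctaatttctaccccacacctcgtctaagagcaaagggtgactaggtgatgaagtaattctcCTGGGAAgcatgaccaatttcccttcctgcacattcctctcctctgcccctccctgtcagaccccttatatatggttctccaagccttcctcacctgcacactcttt
The run of Fgg holds CTGGGAA with its first base at -169 and -61 from the start site. That of Fgb holds TTCNNNGAA at -223 and CTGGGAA at -152, and that of Fga TTCNNNGAA at -242. Fga has 2 start sites in the annotation, and the run of the other, chr2:170671937-170672236, holds neither motif. The runs of Havcr1 and Xdh hold neither as well and are not shown. In Il19 the STAT3 site at -239 overlaps CTGGGAA on the other strand, also at -239, and in Il24 the motifs lie at -152 and -57. TTCNNNGAA was present in 8.87% of 33469 promoters of this length, and in 7.06% of those of genes that rose, 6.82% of those that fell and 6.54% of those tested and not called. CTGGGAA was present in 11.3% of all, 10.3%, 9.71% and 11.8%. These matches describe the letters only; across the genes that rose, neither motif was more frequent than among genes not called by more than 0.6 percentage points.

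Genes of tubular injury were among the largest rises. Of 35 genes on an injury list, 33 were tested, 30 rose and 0 fell, with a median of 1.94 log2 against 0.01 for all genes; 1 of the 33 passed the filter only through Homo libraries, and without PND21_Homo replicate 1 the count was 27. Havcr1 (ENSRNOG00000007243, chromosome 10, 31813814 to 31848379; the sources used here give no genome build for the table), which lets injured tubule cells engulf dying neighbours, held 255, 128 and 141 FPKM in Homo and 0.728, 1.32, 0.722 and 0.956 in Het, with 0.805, 1.46 and 0.916 in WT. Every Homo library lies more than 90-fold above every Het library, and replicate 1 is the highest. The difference was 6.45 ± 0.22 log2 (adjusted p = 3.84e-08). Clu, a secreted chaperone, held 1349, 1425 and 1811 FPKM against 67.4, 73.8, 67.6 and 55.7, a difference of 4.50 ± 0.12 log2 (adjusted p = 5.7e-09) with the groups far apart. Mmp7, a matrix protease of injured epithelium, held 49.6, 30.5 and 28.8 FPKM in Homo and 0 reads in the 4 Het libraries, at least 691-fold higher (floor of 3 reads over the group).

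Lcn2, a secreted protein which binds iron-carrying siderophores, held 494, 334 and 292 FPKM against 6.81, 11.8, 11.8 and 12, 5.01 ± 0.26 log2 (adjusted p = 1.27e-06). Reg3g, a C-type lectin that binds bacteria, held 32.5, 31.4 and 20.4 FPKM against 0 reads in every Het and WT library, at least 377-fold higher; it is 1 of the genes that passed only through Homo. Cp, the copper-carrying ferroxidase, held 231 ± 25 FPKM against 29.3 ± 1.92 (2.93 ± 0.097 log2, adjusted p = 1.59e-08). Sox9, a transcription factor of regenerating tubule cells, held 11.9 ± 4.6 against 0.82 ± 0.418 (2.80 ± 0.24 log2, adjusted p = 8.63e-06).

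**Figure D1:**
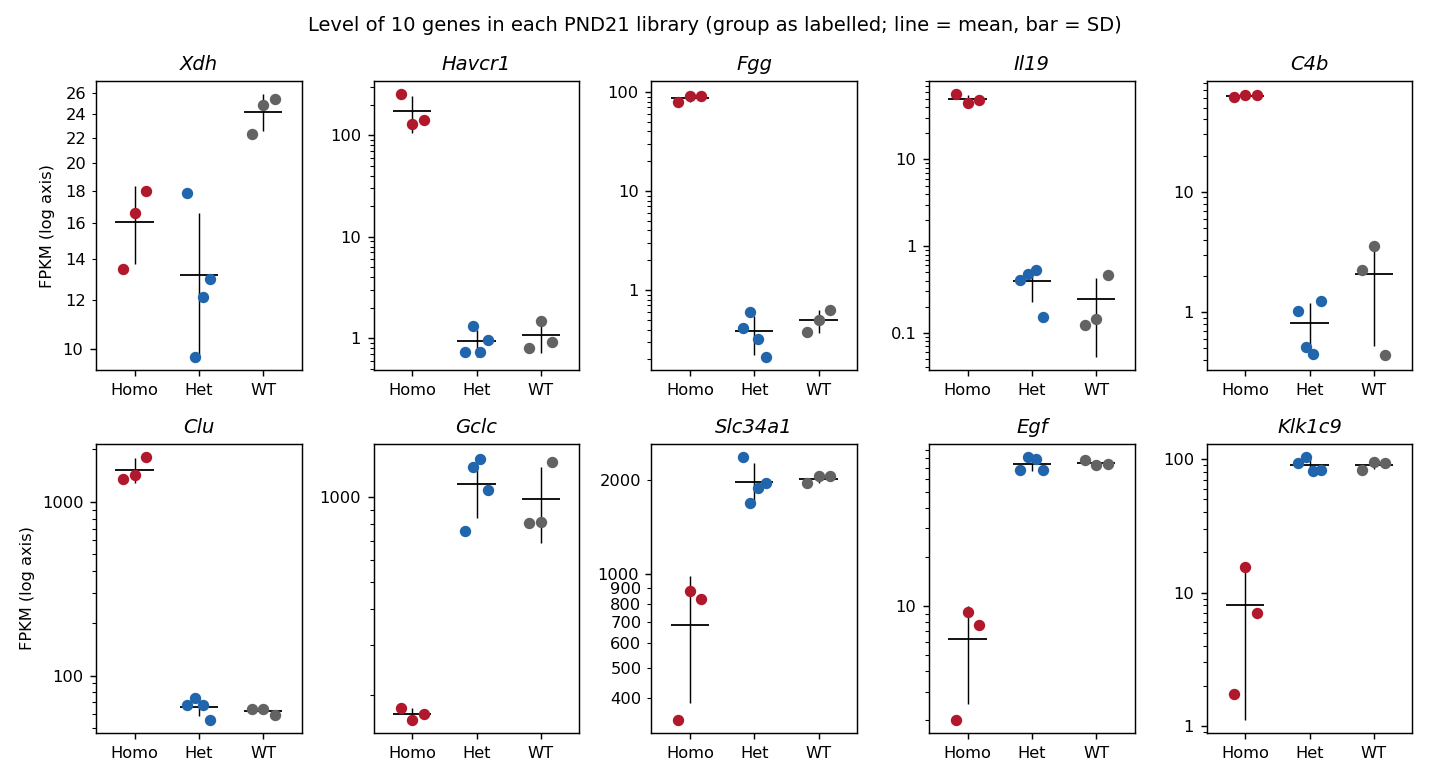
Level of 10 genes in the PND21 libraries, on a log axis of FPKM, by labelled group (points are libraries, lines the mean, bars the SD). Xdh overlaps between Homo and Het, while Havcr1, Fgg, Il19, C4b and Clu are higher and Gclc, Slc34a1, Egf and Klk1c9 lower in every Homo library.

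Ligands, receptors and targets of the IL-10 family and STAT3 list rose, and some receptors fell. Of its 30 genes, 25 were tested, 18 rose and 2 fell (median 1.16 log2); 4 passed only through Homo, and 14 were called up without PND21_Homo replicate 1. Among the ligands, Il19 (chromosome 13, 47664080 to 47670407) held 56.7, 45.2 and 48 FPKM in Homo, 0.405, 0.474, 0.535 and 0.154 in Het and 0.122, 0.145 and 0.463 in WT. No Homo library is below 45 FPKM and no other library reaches 0.6. The difference was 5.20 ± 0.14 log2 (adjusted p = 5.95e-09). Il24, its neighbour on the chromosome and in the family, held 30.4, 25.4 and 39 FPKM against 0.0615, 0.288, 0.061 and 0.491 (4.73 ± 0.19 log2, adjusted p = 5.94e-08). In both genes the Homo libraries lie far above every Het library, and both proteins can signal through the same receptor.

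The IL-6 class of ligands was lower in level. Lif held 12.5 ± 3.57 FPKM against 0.89 ± 0.261 (2.82 ± 0.18 log2, adjusted p = 1.14e-06). Il11 held 1.79 ± 0.313 against 0.132 ± 0.104 (1.3 ± 0.15, adjusted p = 6.05e-05), and Il6 held 1.31, 1.35 and 1.22 FPKM with 0 reads in every Het and WT library, at least 23.7-fold higher from 60 reads in Homo. Il20, Il22, Il10, Osm and Il20rb did not reach the filter. Osm had 189 reads over the Homo libraries and 12 over the Het libraries, and Il22 had 0 and 1. Il20rb, the receptor chain that pairs with Il20ra, had 41 and 7.

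Receptors moved unevenly. Osmr, the oncostatin M receptor, held 40.6, 37.8 and 39.3 FPKM against 5.1, 5.22, 5.13 and 5.15 (2.71 ± 0.086 log2, adjusted p = 1.59e-08), one of the tightest separations of the list. Il6st, the gp130 chain that the IL-6 class shares, held 78.1 ± 8.56 against 34.7 ± 5.63 (1.16 ± 0.14, adjusted p = 0.000109), and Il6r rose by 1.60 ± 0.13 (adjusted p = 6.03e-06). Il20ra, 1 chain of a receptor for IL-19 and IL-24, fell: it held 0.772, 2.02 and 4.27 FPKM in Homo and 12.5, 8.97, 5.89 and 7.41 in Het (-1.63 ± 0.34 log2, adjusted p = 0.00385). The groups do not overlap, but PND21_Homo replicate 3 is near the lowest Het library. Il11ra1, the receptor of IL-11, also fell, from 46 ± 2.93 to 25.5 ± 1.43 FPKM (-0.82 ± 0.076, adjusted p = 1.51e-05). Lifr was not called (-0.31 ± 0.19, adjusted p = 0.213).

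Downstream, Socs3, the feedback inhibitor that STAT3 induces, held 108.2, 153 and 114 FPKM in Homo and 4.54, 4.83, 4.34 and 5.66 in Het (4.42 ± 0.12 log2, adjusted p = 5.95e-09). Stat3 held 99.3, 91 and 92.8 against 46.8, 46.5, 47.7 and 48.3, 1.99-fold with no overlap (0.98 ± 0.059 log2, adjusted p = 8.64e-07). Jak2 rose by 0.71 ± 0.071 (adjusted p = 2.57e-05), Bcl3 by 2.38 ± 0.21 (adjusted p = 1.48e-05) and Junb by 1.78 ± 0.25 (adjusted p = 0.000367). The transcript of Socs1, another inhibitor, was near the threshold (0.76 ± 0.28, adjusted p = 0.0521) and passed it under 6 of 17 alternatives, among them the set without PND21_Het replicate 1 (0.047).

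All 3 chains of fibrinogen rose, and they are neighbours on chromosome 2. Fgg (gamma chain, 181987217 to 181994514) held 78.9, 91.9 and 91.8 FPKM in Homo, 0.415, 0.594, 0.32 and 0.211 in Het and 0.375, 0.495 and 0.633 in WT. The Homo libraries rest on 6027 reads and the Het libraries on 31, and the difference was 6.0 ± 0.12 log2 (adjusted p = 8.87e-10). Fgg passed the filter only through the Homo libraries, so that p-value is a description and not evidence. Fgb (beta chain) held 60.4, 74.8 and 73.4 against 2.56, 2.94, 1.76 and 2.28 (4.39 ± 0.13 log2, adjusted p = 8.02e-09), and Fga (alpha chain) 82.2, 123.05 and 131.2 against 9.6, 11.1, 10.5 and 6.96 (3.41 ± 0.18 log2, adjusted p = 6.9e-07). In the Het libraries Fga had the highest level per length of the 3 and Fgg the lowest, while the Homo means were 69.5 ± 7.95 FPKM for Fgb, 87.5 ± 7.48 for Fgg and 112 ± 26.3 for Fga. In each chain PND21_Homo replicate 1 is the lowest of its group and still above every Het library.

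The fibrinogen and coagulation list as a whole had 19 of 25 genes tested, of which 13 rose and 2 fell (median 0.65 log2). Of the 19, 2 passed the filter only through Homo libraries, and 11 rose without PND21_Homo replicate 1. Plaur, the urokinase receptor, held 25.1, 16.7 and 14.7 FPKM against 2.5, 2.61, 2.34 and 2.46 (2.48 ± 0.18 log2, adjusted p = 2.97e-06), and F3, tissue factor, 77.9 ± 6.81 against 26.8 ± 5.23 (1.52 ± 0.14, adjusted p = 1.35e-05). The genes that fell were F13b, the carrier subunit of factor XIII (2.13 ± 0.784 against 9.42 ± 1.85 FPKM, -1.75 ± 0.19 log2, adjusted p = 4.33e-05), and Serpinc1, antithrombin (3.03 ± 0.74 against 6.49 ± 1.53, -0.89 ± 0.17, adjusted p = 0.00143). Plau, urokinase, was high in both groups (559 ± 113 against 416 ± 83.8, adjusted p = 0.0622), and passed the test without PND21_Homo replicate 1 (0.0149) or without PND21_Het replicate 3 (0.0182). Fibrinogen is best known from the liver, and of 16 liver markers 1 reached the filter (Apoc3, 8.82 ± 0.845 against 12 ± 1.56 FPKM, which fell, though not with TPM). Below the filter, reads over the 3 Homo and the 4 Het libraries were 391 and 154 for Apob, 33 and 7 for Serpina1, 75 and 299 for Cps1 and 10 and 18 for Alb. The summed level of the list, most of it from Apoc3, was 9.83 to 11.9 FPKM in Homo and 13.6 to 16.7 in Het. The part of that list in the fibrinogen result was not tested.

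Genes of complement, from its recognition molecule to the central component C3, rose, and 3 of those tested passed the filter only through Homo libraries. Of 25 genes 24 were tested, 21 rose and 1 fell, Cd59, which shields cells from complement (94.4 ± 1.16 against 125 ± 12.3 FPKM, not called with TPM; like Cxcl12 and Mx2, it is named because its list moved the other way, after its value was seen) (median 1.97 log2; 17 of 21 rose without PND21_Homo replicate 1). C4b held 61.1, 64.1 and 64.1 FPKM in Homo, 1.03, 0.518, 0.452 and 1.24 in Het and 2.26, 3.58 and 0.444 in WT, 5.17 ± 0.34 log2 (adjusted p = 3.65e-06). The Homo libraries lie close together, whereas Het and WT libraries vary several-fold at a low level, and reads of C4b and its near copy C4a are hard to part. C3 held 42.5, 31.2 and 21.9 against 1.19, 0.804, 1.28 and 1.14 (3.92 ± 0.19, adjusted p = 2.25e-07), C1qa, part of the recognition molecule of the classical pathway, 119.9 ± 24.4 against 16.4 ± 1.24 (2.79 ± 0.12, adjusted p = 1.32e-07), and Cfi, which cuts C3b and C4b, 44.9 ± 0.913 against 1.59 ± 0.0981 (4.15 ± 0.091, adjusted p = 1.2e-09).

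Markers of leukocytes rose with these genes. All 24 tested macrophage and dendritic cell markers rose, of 25 listed (median 2.24 log2), 4 of them having passed only through Homo; without PND21_Homo replicate 1, 20 were tested and 19 rose. Their summed level was 1369.8 to 2005 FPKM in Homo and 245 to 271 in Het. Csf1r, the receptor for the growth factor of macrophages, held 64.1, 52.2 and 54.9 FPKM against 11.6, 12.3, 11.3 and 11 (2.21 ± 0.079 log2, adjusted p = 2.6e-08). Gpnmb, a lysosome-associated protein of phagocytes, held 103.99, 64.7 and 55.4 against 2.13, 2.57, 2.18 and 1.52 (4.57 ± 0.21, adjusted p = 2.37e-07), and Cd163, the haptoglobin-haemoglobin receptor of macrophages, 9.5, 4.98 and 4.8 against 0.251, 0.255, 0.149 and 0.458 (2.49 ± 0.23, adjusted p = 1.48e-05). In all 3, replicate 1 is the highest Homo library.

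Fewer lymphocyte and neutrophil genes reached the filter. Of 19 lymphocyte genes 11 were tested and 10 rose, 5 of the 11 having passed only through Homo, and 5 of the 6 still tested rose without any 1 of the Homo libraries. Cd3e, of the T cell receptor complex, held 4.66, 3.39 and 3.2 FPKM against 0.57, 0.278, 0.566 and 0.489 (1.68 ± 0.15 log2, adjusted p = 1.11e-05), and Cd4, which macrophages of the rat also express, 39.7 ± 3.46 against 7.07 ± 1.65 (2.36 ± 0.16, adjusted p = 1.95e-06). Of 15 neutrophil and mast cell genes 6 were tested and 5 rose, 3 of the 6 having passed only through Homo. Without any 1 of the Homo libraries 3 were tested and 2 rose. Members below the filter went both ways. Reads over the Homo and the Het libraries were 25 and 60 for Mpo and 12 and 23 for Ngp, but 28 and 5 for Camp and 11 and 1 for Elane. S100a9 and S100a8, the subunits of calprotectin, held 61.1 ± 9.44 against 3.77 ± 1.14 FPKM and 40.4 ± 2.26 against 2.87 ± 1.09 (3.73 ± 0.19 and 3.46 ± 0.18 log2, adjusted p = 3.08e-07 and 3.08e-07). Of 35 cytokines and chemokines 31 were tested, 21 rose and 1 fell, Cxcl12, a chemokine of stromal cells (37.7 ± 6.75 against 58.8 ± 5.39 FPKM). Of the 31, 4 passed the filter only through Homo libraries. Cxcl6, a neutrophil attractant, held 21.3, 11.5 and 13.5 FPKM with 0 reads in every Het and WT library, at least 429-fold higher, Cxcl1 held 15.7 ± 1.81 against 0.723 ± 0.37 (3.29 ± 0.17, adjusted p = 3.08e-07) and Il1rn, the antagonist of IL-1, 15.4 ± 3.6 against 0.867 ± 0.24 (3.12 ± 0.17, adjusted p = 4.47e-07). Of 29 antigen presentation and interferon genes 27 were tested, 19 rose and 1 fell, the interferon-induced Mx2 (3.02 ± 0.693 against 5.43 ± 0.773 FPKM), with RT1-Ba, a class II chain of antigen presenting cells, at 54.2 ± 4.51 against 16.7 ± 1.18 FPKM (1.64 ± 0.089, adjusted p = 4.24e-07); reads of close RT1 copies cannot be parted. The part of leukocyte number in the changes of the other lists was not tested.

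Matrix genes followed. All 37 listed fibrosis and matrix genes were tested, and 32 rose and 0 fell (median 0.98 log2; 30 rose without PND21_Homo replicate 1). Timp1, an inhibitor of matrix proteases, held 209.9, 188 and 166 FPKM against 16.6, 23.5, 21.8 and 24.4 (3.07 ± 0.14 log2, adjusted p = 1.35e-07). Thbs1, which activates latent TGF-beta, held 162 ± 12.8 against 47.3 ± 4.03 (1.76 ± 0.088, adjusted p = 2.5e-07), and Acta2, the actin of myofibroblasts and smooth muscle, 133 ± 26.1 against 51.8 ± 5.6 (1.33 ± 0.13, adjusted p = 2.12e-05). Of 24 genes of crystal binding and stone matrix 16 were tested, 11 rose and 2 fell. Spp1 (osteopontin), an acidic protein that coats mineral, held 9567, 7558 and 7726 FPKM against 469.7, 961, 927 and 706 (3.48 ± 0.24, adjusted p = 2.97e-06), and Cd44, a receptor of hyaluronan and osteopontin, 26.6 ± 10.6 against 2.86 ± 0.541 (2.78 ± 0.21, adjusted p = 3.67e-06).

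**Figure D2:**
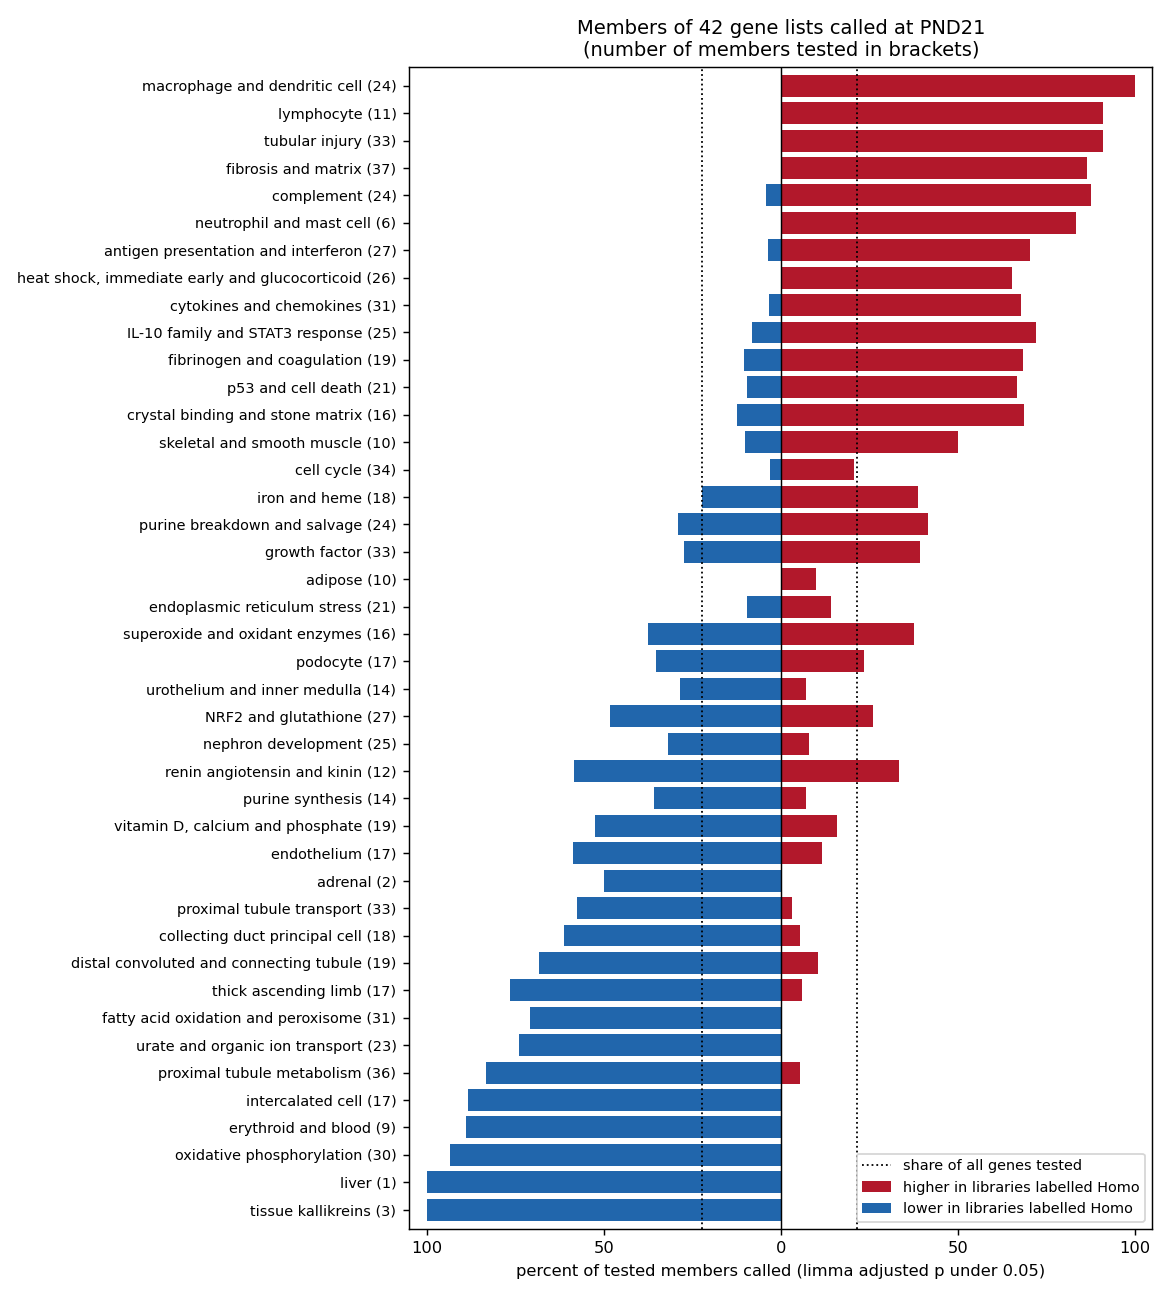
Share of the tested members of each of 42 gene lists that were called, to the right where higher and to the left where lower in libraries labelled Homo (x axis, percent; number tested in brackets). Dotted lines mark the share of all genes tested, 21.4% higher and 22.3% lower: immune, injury and matrix lists extend far past it on the right, and nephron and energy lists on the left.

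Tissue kallikreins are a family of serine proteases, some of which release kinins, and those tested here fell. Of 19 listed genes 15 were matched, Klk1 not among them, and 3 were tested. All 3 fell, and 2 of these passed only through Het. Reads of the near-identical Klk1c copies cannot be parted. Klk1c9 (chromosome 1, 100059967 to 100203329) held 1.72, 15.5 and 6.97 FPKM in Homo, 93.6, 104.2, 81.7 and 83.4 in Het and 83.6, 94.6 and 93.4 in WT, -3.69 ± 0.48 log2 (adjusted p = 0.000349). PND21_Homo replicate 1 is the lowest, and the highest Homo library is still more than 5-fold below the lowest Het library. Klk1c2 held 6.64, 8.36, 6.42 and 4.74 FPKM in Het and 0 reads in every Homo library, at least 82.9-fold lower. Klk1c10 had 1 read over the Homo libraries and 84 over the Het libraries.

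Egf fell with them. The transcript, made by the thick ascending limb and distal convoluted tubule, held 2.02, 9.16 and 7.65 FPKM in Homo, 68.1, 81.7, 79.2 and 68.1 in Het and 77.9, 73.2 and 73.9 in WT (-3.55 ± 0.35 log2, adjusted p = 6.51e-05). Replicate 1 is again the lowest Homo library. Hbegf, another ligand of the EGF receptor, held 17.6 ± 6.12 against 2.61 ± 0.648 FPKM (2.34 ± 0.20, adjusted p = 1.03e-05). Of 35 growth factor genes 33 were tested, 13 rose and 9 fell (5 with TPM), where 21.4% of all genes tested rose and 22.3% fell. The falls lie near that share. The rises include Angptl4, an inhibitor of lipoprotein lipase, at 28 ± 6.07 against 2.36 ± 0.598 (3.11 ± 0.24, adjusted p = 5.94e-06).

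Along the nephron most segment markers fell. In the proximal tubule, 33 transport genes were tested and 19 fell and 1 rose (median -0.62 log2; 15 fell and 7 rose with TPM). Slc34a1, the main phosphate carrier of the brush border, held 341, 881 and 833 FPKM against 2376, 1691, 1888 and 1959 (-1.64 ± 0.29 log2, adjusted p = 0.00131), with replicate 1 far below the other Homo libraries. Aqp1, the water channel, held 269 ± 20.3 against 586 ± 37.6 (-1.12 ± 0.087, adjusted p = 4.64e-06), and Lrp2 (megalin), the endocytic receptor, 163 ± 35.6 against 246 ± 51.8 (-0.60 ± 0.18, adjusted p = 0.0189, but 0.106 with TPM, 0.0689 without PND21_Homo replicate 1 and 0.13 with the term for animal numbers). Of 24 urate and organic ion transporters 23 were tested, 17 fell and 0 rose (median -0.77; 13 and 2 with TPM). Slc22a12 (URAT1), which takes urate back from the tubule fluid, held 94.8, 90.2 and 84.3 FPKM against 239, 235, 245 and 178 (-1.3 ± 0.13, adjusted p = 2.99e-05), Slc22a13, a urate and nicotinate carrier, 5.19 ± 2.7 against 33.5 ± 1.77 (-2.59 ± 0.27, adjusted p = 6.41e-05) and Slco1a6, an organic anion carrier of a family whose reads are hard to part, 40.1 ± 16.3 against 249 ± 27.6 (-2.69 ± 0.25, adjusted p = 2.73e-05).

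Enzymes of the proximal tubule fell more than its transporters in the median. Of 38 metabolism genes 36 were tested, 30 fell and 2 rose (median -1.32 log2; 27 and 2 with TPM). Miox, which opens inositol, held 155, 179 and 184 FPKM against 729.7, 743, 719 and 648 (-2.04 ± 0.11 log2, adjusted p = 4.22e-07), and Mep1b, a brush border protease, 15.3 ± 3.08 against 63.3 ± 6.54 (-1.99 ± 0.13, adjusted p = 1.56e-06). Outside this list, Hnmt, which inactivates histamine, held 8.68, 9.32 and 10.1 against 66.2, 107, 103 and 85.7 (-3.12 ± 0.16, adjusted p = 3.37e-07), and Cyp1a1, a target of the aryl hydrocarbon receptor, 0.514 ± 0.399 against 11.7 ± 2.95 (-3.07 ± 0.19, adjusted p = 1.17e-06). Pck1, a key enzyme of glucose synthesis, was not called (28.9, 759 and 749 FPKM in Homo, 1235, 498, 766 and 577 in Het, adjusted p = 0.277): replicate 1 alone is low, and the other 2 Homo libraries lie among the Het libraries.

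Genes of energy metabolism fell. Of 30 genes of oxidative phosphorylation, all tested, 28 fell and 0 rose (median -0.72 log2), and the count was 28 and 0 also with TPM and without PND21_Homo replicate 1. Atp5b, of the ATP synthase, held 1295, 1702 and 1543 FPKM against 2541, 2661, 2984 and 2618 (-0.84 ± 0.12 log2, adjusted p = 0.000233), and the mitochondrial Mt-co1 17421 ± 1537 against 30491 ± 2643 (-0.81 ± 0.11, adjusted p = 0.000209). Of 33 genes of fatty acid oxidation and peroxisomes 31 were tested, 22 fell and 0 rose (median -0.59; 14 fell with TPM), among them Acadm, of the first step of medium chain oxidation, at 132 ± 26 against 267 ± 13.2 FPKM (-1.03 ± 0.12, adjusted p = 7.46e-05), and Cat, catalase, at 181 ± 54.6 against 443 ± 46 (-1.33 ± 0.17, adjusted p = 0.00016).

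Distal segments showed the same direction with differing medians. In the thick ascending limb 17 of 19 genes were tested, 13 fell and 1 rose (median -0.86 log2). Tmem207 held 5.58 ± 1.09 against 23.3 ± 3.19 FPKM (-1.89 ± 0.13 log2, adjusted p = 1.77e-06), Slc12a1, the salt carrier of the segment, 235 ± 63.4 against 377 ± 56.7 (-0.71 ± 0.19, adjusted p = 0.0106, and 0.0979 with the term for animal numbers), and Umod, uromodulin, fell by 0.82 log2 (adjusted p = 0.0244, and 0.19 with that term). In the distal convoluted and connecting tubule 13 of 19 tested genes fell and 2 rose (8 and 3 with TPM), with Slc12a3, its salt carrier, at 62.8 ± 9.28 against 91.8 ± 9.67 (-0.54 ± 0.12, adjusted p = 0.00401). With TPM the limma adjusted p was 0.0622 for Slc12a1, 0.0803 for Slc12a3 and 0.0775 for Umod, and Umod also missed the threshold without PND21_Het replicate 2 (0.0585) or 3 (0.0602). Intercalated cells, which secrete acid or base, had 17 genes tested, of which 15 fell and 0 rose (median -1.19); Slc26a4 (pendrin) held 14.2, 14.7 and 14.8 FPKM against 37.4, 38.4, 26 and 28.2 (-1.09 ± 0.13, adjusted p = 9.85e-05), and Slc4a1, an anion exchanger of these cells and of red cells, 3.27, 12.2 and 10.6 against 64.6, 76.4, 59.7 and 72.1 (-2.99 ± 0.34, adjusted p = 0.000153).

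In principal cells of the collecting duct 11 of 18 tested genes fell and 1 rose. The gene that rose was Elf3, an epithelial transcription factor (89.5 ± 3.18 against 28.7 ± 6.74 FPKM, 1.63 ± 0.14 log2, adjusted p = 8.16e-06). Aqp2, the vasopressin-controlled water channel, held 50.1, 92 and 54.9 FPKM in Homo, 103, 308, 226 and 233 in Het and 129.6, 85.1 and 160.7 in WT (-1.66 ± 0.38, adjusted p = 0.00711, and 0.063 with the term for animal numbers), so the Het libraries, except replicate 1, lie above the WT libraries as well. The summed level of the urothelium and inner medulla list, which holds Aqp2, was 395 to 427 FPKM in Homo, 355 to 746 in Het and 345 to 457 in WT. Slc14a1, a urea transporter of the medulla and urothelium, held 1.16, 1.44 and 2.33 FPKM in Homo and 4.7, 18.8, 17 and 15.1 in Het (-2.37 ± 0.44, adjusted p = 0.00233), with PND21_Het replicate 1 nearest to the Homo libraries. Of the 18 genes of that list 14 were tested, 4 fell and 1 rose, and the falls numbered 9 without PND21_Het replicate 1 and 2 without PND21_Het replicate 2, 3 or 4 or PND21_Homo replicate 1. Of the 14, 4 passed the filter only through Het libraries. The share called, 35.7%, was below the 43.6% of all genes tested. The part of the piece dissected in the collecting duct result was not tested.

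Genes of glomerulus and vessels were called in both directions, as were all genes tested (21.4% higher, 22.3% lower). The podocyte rises lie near that share and the endothelial rises below it. Of the podocyte genes tested 58.8% were called and of the endothelial genes 70.6%, against 43.6% of all genes. Of 17 tested podocyte genes 6 fell and 4 rose (3 and 5 with TPM), with Cd2ap, an adaptor of the slit diaphragm, higher at 67.5, 67.2 and 68.7 FPKM against 37.3, 42, 47.5 and 35.6 (0.73 ± 0.096 log2, adjusted p = 0.000156). Of 17 tested endothelial genes 10 fell and 2 rose, and 4 fell and 2 rose with TPM. Plvap, of the diaphragm of fenestrated capillaries, held 51.7, 56.8 and 62.3 FPKM against 165, 147, 125 and 156 (-1.36 ± 0.11, adjusted p = 5.69e-06), and Emcn, a sialomucin of capillary endothelium, 35.3 ± 6.53 against 84.4 ± 4.57 (-1.25 ± 0.11, adjusted p = 9.35e-06).

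**Figure D3:**
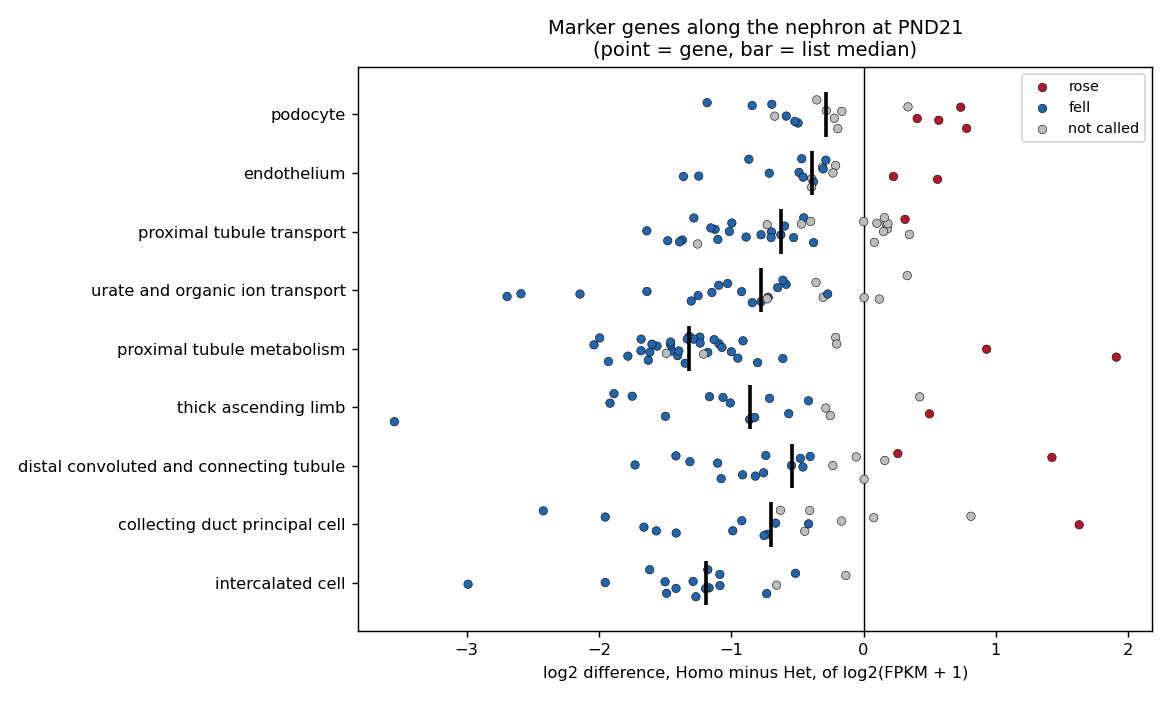
log2 difference, Homo minus Het, of the tested members of 9 lists of nephron, glomerular and vessel genes at PND21 (points are genes, coloured by call; bars are list medians). Medians lie below 0 in all 9 lists, lowest in proximal tubule metabolism at -1.32 and intercalated cells at -1.19.

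Around Xdh in the purine pathway, changes went both ways. Of 31 breakdown and salvage genes 29 were matched and 24 tested, 10 rose and 7 fell (median 0.18 log2). Over all genes tested 21.4% rose and 22.3% fell. Gda, guanine deaminase, which makes xanthine from guanine, held 56.2, 34.1 and 38.9 FPKM in Homo and 4.24, 2.53, 2.61 and 4.41 in Het (3.30 ± 0.25 log2, adjusted p = 7.84e-06), the largest change of the list. Mocos, which completes the molybdenum cofactor that Xdh and the aldehyde oxidases need, held 5.15, 4.36 and 4.19 against 2.21, 2.28, 2.09 and 1.66 (0.86 ± 0.12, adjusted p = 0.00019), while Mocs2, of an earlier step of that cofactor, fell (30.4 ± 5.26 against 44.9 ± 2.17, -0.56 ± 0.12, adjusted p = 0.00382, and 0.0563 with the term for animal numbers). The aldehyde oxidases, close relatives of Xdh, parted: Aox1 held 4.83 ± 0.873 against 3.18 ± 0.877 (0.49 ± 0.17, adjusted p = 0.0384, a call lost without PND21_Het replicate 2 or 3 or PND21_Homo replicate 1 or 3, at up to 0.141, or with the term for animal numbers, 0.303) and Aox2 0.801, 0.988 and 1.17 against 3.45, 2.37, 2.79 and 2.37 FPKM (-0.91 ± 0.16, adjusted p = 0.00093).

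Among the members of the breakdown and salvage list that fell, Adk, which phosphorylates adenosine, held 68.6, 66.6 and 69.9 FPKM against 107.8, 109.8, 112 and 103 (-0.65 ± 0.074 log2, adjusted p = 5.87e-05), and Nt5e (CD73), which makes adenosine outside the cell, 18.3 ± 4.05 against 29.6 ± 5.12 (-0.68 ± 0.15, adjusted p = 0.00455). Pnp, which frees hypoxanthine and guanine from nucleosides, held 143 ± 5.71 against 125 ± 5.42 FPKM (0.20 ± 0.067, adjusted p = 0.0359), a call kept in 8 of 17 alternatives and lost with the term for animal numbers (0.0695) and without any 1 library other than PND21_Het replicate 2. The salvage enzyme Aprt, at 292 ± 20.9 against 252 ± 6.64 (adjusted p = 0.0588), passed in 6 of 17, among them TPM (0.000188) and the set without PND21_Homo replicate 3 (0.0485). Hprt1 and urate oxidase (Uox) were below the filter; Uox had 2 reads over the Homo and 1 over the Het libraries. In purine synthesis 14 genes were tested, 5 fell and 1 rose, with 4 and 6 under TPM, so no direction is given for that list. Mthfd1, of the folate cycle, held 39.96 ± 9.97 against 89.1 ± 4.79 FPKM (-1.16 ± 0.14, adjusted p = 8.7e-05).

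Redox genes divided within 1 list. Of 31 NRF2 and glutathione genes 27 were tested, 13 fell and 7 rose, where 22.3% of all genes fell and 21.4% rose. Gclc, of the first step of glutathione synthesis, held 179.9, 163 and 171 FPKM against 758, 1276, 1367 and 1060.2 (-2.66 ± 0.22 log2, adjusted p = 1.03e-05), and Osgin1 22.9 ± 4.25 against 94.6 ± 7.54 (-2.01 ± 0.12, adjusted p = 9.01e-07), whereas Gpx2, a glutathione peroxidase best known from the gut, held 115.9, 102 and 97.2 against 5.59, 7.71, 9.12 and 6.38 (3.71 ± 0.15, adjusted p = 5.94e-08). Gpx3, the secreted peroxidase made by the proximal tubule and 1 of the 10 most abundant transcripts here, held 5431 ± 317 against 12050.3 ± 1733 (-1.14 ± 0.12, adjusted p = 3.13e-05). Cybb, the catalytic subunit of the phagocyte NADPH oxidase, held 29.9 ± 3.53 against 5.92 ± 0.379 (2.16 ± 0.092, adjusted p = 1.04e-07).

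Mineral and pressure systems also changed. Of 19 vitamin D, calcium and phosphate genes 10 fell and 3 rose, where 22.3% of all genes tested fell and 21.4% rose. The rises, below that share, include Trpv6, an apical calcium channel, at 14.6, 13.8 and 18 FPKM against 0.563, 0.602, 0.388 and 0.559 (3.42 ± 0.12 log2, adjusted p = 2.44e-08), and Slc34a2, a phosphate carrier best known from gut and lung, at 167, 98.5 and 86.2 against 10.3, 13.4, 13.2 and 10.8 (3.14 ± 0.21, adjusted p = 3.44e-06). The carriers of the same family thus moved apart, Slc34a1 down and Slc34a2 up, with Slc34a1 still the higher per length. Of 18 renin, angiotensin and kinin genes 12 were tested, 7 fell and 4 rose. Ace, which makes angiotensin II, held 4.64, 6.01 and 5.6 FPKM against 2.74, 2.34, 2.34 and 2.02 (0.93 ± 0.14, adjusted p = 0.000392).

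Genes of cell death and early response rose, and those of proliferation were little called. Of 26 p53 and cell death genes 21 were tested, 14 rose and 2 fell, with Pmaip1 (NOXA) at 7.38 ± 0.202 against 1.24 ± 0.487 FPKM (1.93 ± 0.17 log2, adjusted p = 1.06e-05). Of 34 tested cell cycle genes 7 rose and 1 fell, near the background of 21.4% and below that of 22.3%. The rises were 20 with TPM, 12 without PND21_Homo replicate 1, and 2 without PND21_Homo replicate 2 or with the term for animal numbers. Ccnd1 was the gene that fell (71.4 ± 16.9 against 118 ± 3.92, -0.74 ± 0.14, adjusted p = 0.00166). Of 26 tested immediate early, heat shock and glucocorticoid genes 17 rose and 0 fell, among them Egr2 (8.62 ± 1.69 against 0.14 ± 0.0747 FPKM, 3.06 ± 0.15, adjusted p = 2.35e-07) and Myc (24.7 ± 3.21 against 4.92 ± 0.889, 2.12 ± 0.19, adjusted p = 1.78e-05). Of 21 tested endoplasmic reticulum stress genes 3 rose and 2 fell, under the background, with 5 falls without PND21_Homo replicate 1 or PND21_Het replicate 1. Of 25 tested nephron development genes 8 fell and 2 rose, 5 fell without PND21_Homo replicate 3, and 4 fell and 9 rose with TPM, so no direction is given. Of 18 tested iron and heme genes 7 rose and 4 fell, the falls being near the background of 22.3%. Of 16 superoxide and oxidant enzymes 6 rose and 6 fell, where 21.4% and 22.3% of all genes did.

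Red cell transcripts were lower in Homo. Of 17 erythroid and blood genes 9 were tested, 8 fell and 0 rose (median -2.11 log2), and the summed level was 1245 to 3103 FPKM in Homo, 7716 to 11226 in Het and 3613 to 9123 in WT. Hba1, of alpha globin, whose copies share reads, held 1415, 863 and 2074 FPKM against 5392, 7338, 5902 and 6985 (-2.22 ± 0.36, adjusted p = 0.000994), and Alas2, the red cell enzyme of heme synthesis, 5.38, 3.86 and 12.2 against 24.3, 39.6, 30.2 and 32.1 (-2.11 ± 0.38, adjusted p = 0.00201). WT replicate 2 is near the Homo libraries in both. Blood left in the tissue and red cell precursors cannot be told apart, and the part of either in other results was not tested.

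**Figure D4:**
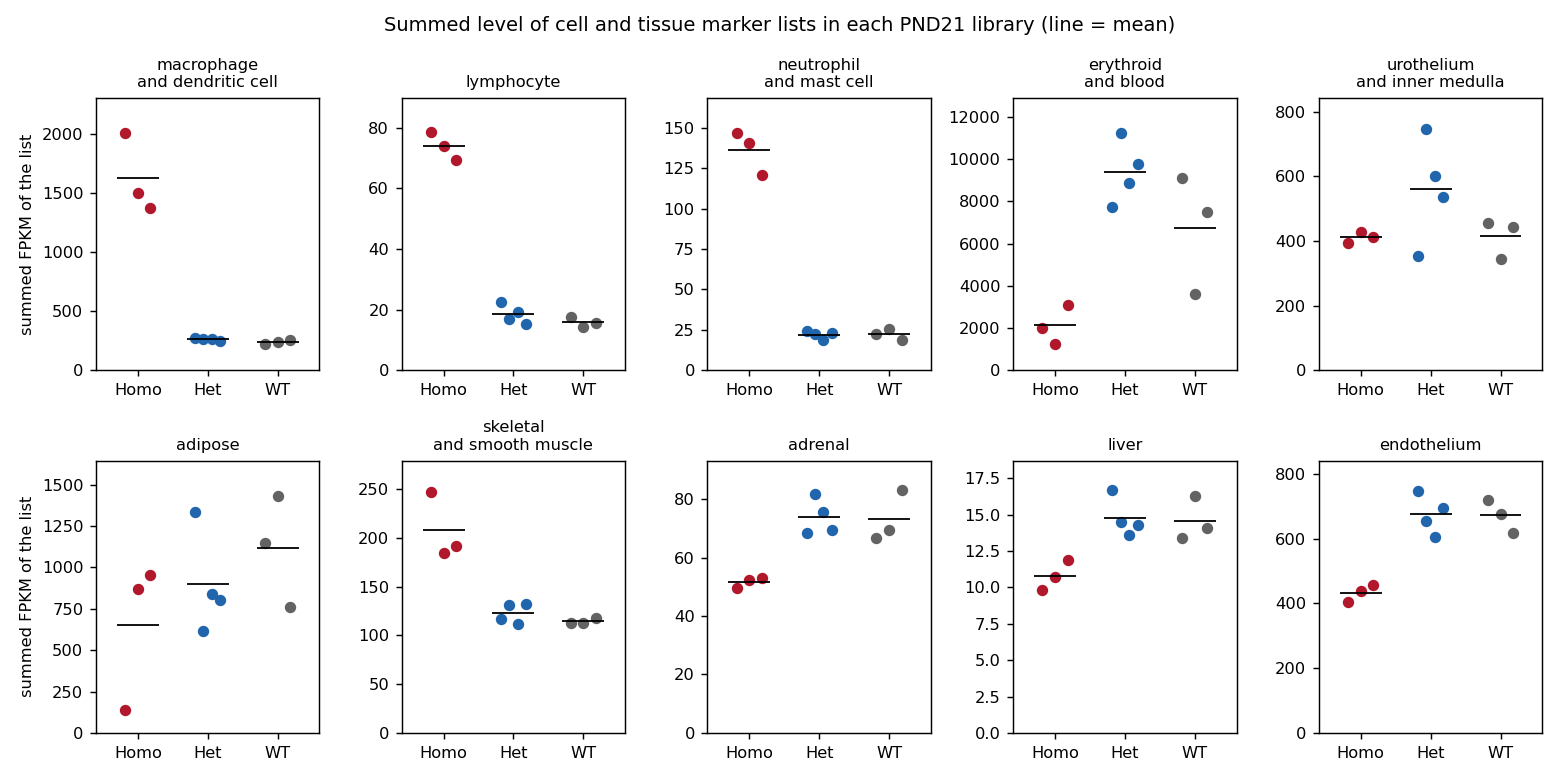
Summed FPKM of 10 marker lists in each PND21 library (points; lines are group means; the y axis starts at 0). Macrophage, lymphocyte, neutrophil and muscle lists are higher and erythroid, endothelial, adrenal and liver lists lower in every Homo library than in every Het library, while the adipose and urothelium lists overlap. The adrenal sum and the liver sum each come mostly from a single gene. On average so does the adipose sum, from Pck1, an enzyme of glucose synthesis (mean 512 FPKM in Homo and 769 in Het). These sums do not show the amount of any of these tissues.

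Of the other tissues that a piece of cortex can carry, most tested adipose markers overlap between the groups: of 10 tested, 1 rose (Cfd, 26.8 ± 4.52 against 4.45 ± 3.6 FPKM, adjusted p = 0.0131, but 0.0536 without PND21_Homo replicate 1, 0.0507 without replicate 3 and 0.125 with the term for animal numbers) and 0 fell, and Fabp4 was 15, 23.1 and 80.6 in Homo and 42, 48.4, 31.3 and 95.1 in Het. Below the filter, Ucp1, of brown fat, had 10 reads over the Homo and 543 over the Het libraries, with at most 26.6 FPKM in any library. Lep had 92 and 77 reads and Plin4 90 and 90. The part of fat in other results was not tested. Of the adrenal list 2 of 14 genes reached the filter, and Cyp11b2 had 1 read over the 7 libraries. In the muscle list, 10 of 16 genes were tested, 5 rose and 1 fell, with 2 rises of 6 or 7 tested without any 1 Homo library. Des, desmin, held 20.5 ± 7.25 against 9.14 ± 1.32 FPKM (1.04 ± 0.20 log2, adjusted p = 0.00214).

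The same comparison at PND15 shares no library with this one, and both were read from 1 fit of the 22 libraries, over the genes that passed the filter in the PND21 libraries. In that fit 6631 genes were called at PND21 (46.2%) and 3985 at PND15 (27.8%). 3361 genes were called with the same sign at both ages, 50.7% of the PND21 calls and 84.3% of the PND15 calls, and 3 with opposite signs. Over the 6267 genes called at PND21 in the fit of that age, the median size of the difference was 0.59 log2 at PND21 and 0.33 at PND15, a description in which the PND21 size is raised by the choice of genes. The difference between the ages was itself tested, and 396 genes passed (2.76% of 14359), 209 with a higher and 187 with a lower value at PND21. Of these, 388 had the larger difference at PND21 and 85 had opposite signs at the 2 ages. The filter used the PND21 libraries only, which favours genes with a large difference at that age. These counts therefore describe the genes tested. The count depends on single libraries, from 180 without PND21_Homo replicate 1 and 196 without PND15_Homo replicate 2 to 599 without PND15_Homo replicate 1; it was 223 without PND21_Het replicate 2, 225 without PND15_Homo replicate 4, 262 without PND21_Het replicate 4 and 248 with a pseudocount of 0.1.

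Fgg went from 18.5 ± 10.5 FPKM in Homo and 1.03 ± 0.605 in Het at PND15 to the PND21 levels above, a difference between ages of 2.84 ± 0.36 log2 (± SE; limma adjusted p = 0.0009). Reg3g held 2.92 ± 1.7 and 0.0704 ± 0.0924 at PND15 (3.07 ± 0.32, adjusted p = 0.000118), and Rprm, a mediator of arrest downstream of p53, 5.99 ± 2.3 and 3.3 ± 0.973 at PND15 and 25.3 ± 3.89 and 1.93 ± 0.676 at PND21 (2.54 ± 0.33, adjusted p = 0.0009). Cd163 held 0.799 ± 0.201 and 0.566 ± 0.493 at PND15, where it was not called (adjusted p = 0.412), and its difference between ages was 2.25 ± 0.30 (adjusted p = 0.00103). Il6 was at 0.128 ± 0.109 and 0.068 ± 0.0554 at PND15 (1.12 ± 0.15, adjusted p = 0.000934). Among genes with a symbol these 5 have the smallest p of that test, and each passed it under each of 18 alternatives. All of them except Rprm passed the filter only through Homo libraries of PND21, which favours a larger difference at that age. The alternatives kept that filter and so do not remove this choice.

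Havcr1 and Egf widened too, by 2.08 ± 0.41 and -2.27 ± 0.50 log2 (adjusted p = 0.0122 and 0.0211; without PND21_Homo replicate 1 Egf missed the threshold, at 0.0543). For Il19 and Klk1c9 the differences between ages, 1.40 ± 0.44 and -1.65 ± 0.61, did not pass (adjusted p = 0.0922 and 0.151). Xdh was lower in Homo than in Het at PND15 (5.58 ± 2.2 against 10.9 ± 1.78 FPKM) and differed between ages by 1.20 ± 0.30 (adjusted p = 0.0354), a call kept in 6 of 18 alternatives. It was lost without any 1 PND21 library other than PND21_Het replicate 1, without PND15_Het replicate 2, 3 or 4 or PND15_Homo replicate 2, with a pseudocount of 0.1 and in a fit of all 44 libraries, at up to 0.467.

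**Figure D5:**
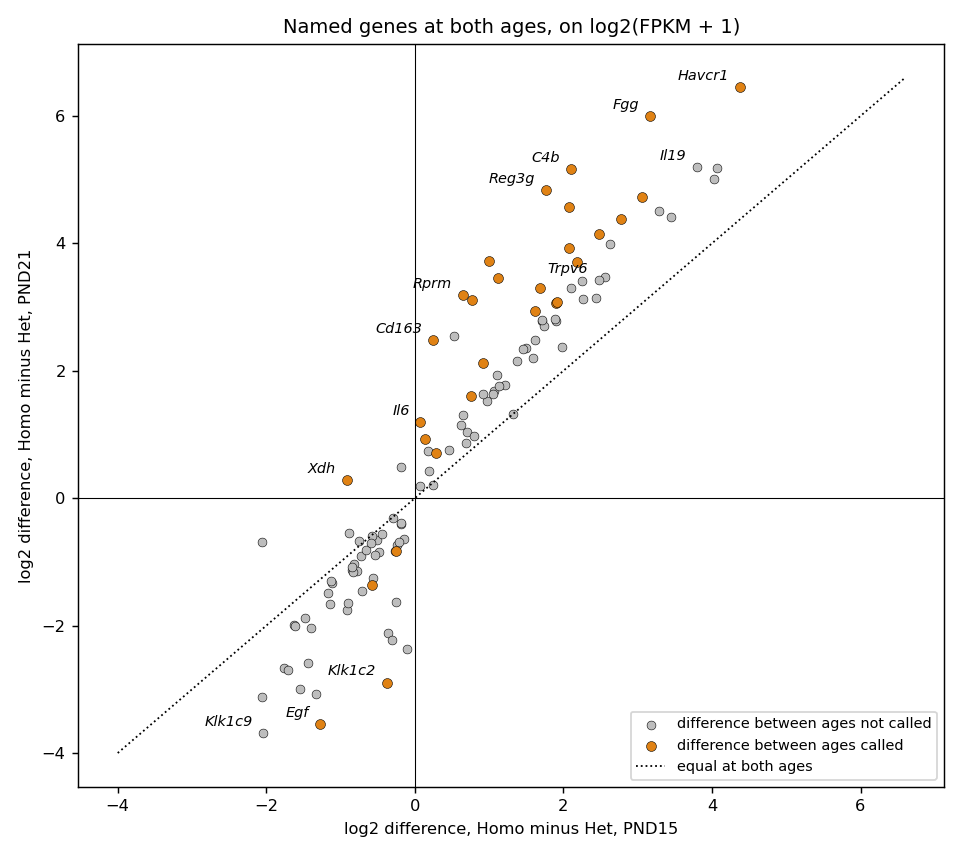
log2 difference, Homo minus Het, at PND15 (x axis) and PND21 (y axis) for the genes named here (points; orange where the difference between ages passed limma at an adjusted p under 0.05; dotted line, equal at both ages). Most genes lie farther from 0 at PND21, the age by which most were named, and Xdh has opposite signs at the 2 ages.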

How the data were processed

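Poly-A RNA of 44 kidney cortex libraries was measured, and 10 libraries of PND21 and 12 of PND15 enter here. Values are the FPKM of every gene as deposited by the authors in 1 table. Among the tools in the submitters' processing notes are featureCounts 1.5.0-p3, StringTie 1.3.3b, HISAT2 2.0.5 and also fastp. The genome build, and whether libraries were directional, are not given in the sources used here, so reads of overlapping genes on opposite strands may not be parted. FPKM times gene length came out as whole multiples of 1 read, within 0.01, for 100% of values, and reads quoted are those recovered.

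Members and lists were chosen with earlier results of these data known. The 10 PND21 libraries were fitted in 3 groups with limma 3.58.1 (statmod 1.5.0, R 4.3.3; trended, robust) on log2(FPKM + 1), which understates the change of low genes, with Benjamini-Hochberg adjustment over 14359 genes; voom on the recovered reads called 6385. The difference between ages was a contrast over the 22 libraries in 6 groups. Each library is 1 animal, and p-values measure the spread between animals. Means and SDs are of FPKM. The fit was also run on simulated counts in which few genes were changed and all genes shared the same spread. That run does not test the calls under a difference as broad as the one found here.

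Named are Xdh, Havcr1, Fgg, Il19 and Klk1c9; in each direction the 10 called genes of largest change that have a symbol, reach a mean of 5 FPKM and do not overlap; up to 4 called members of each list by p; members of the purine breakdown, STAT3, fibrinogen and kallikrein lists; markers of kidney and other tissues; the 10 most abundant genes; and the 5 smallest p between ages. From this set the text gives those whose role is well known. A fold against a group with 0 reads uses a floor of 3 reads over that group, which covers counting error only. Alternatives were another pseudocount, filters, scalings, weights, sets of libraries and leaving out each library.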

Additional observations from a re-analysis of the deposited data

Results flagged for a closer look

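The differences between Homo and Het in 29 of the genes named here were not the same at PND21 and PND15 by the test between ages (limma, adjusted p under 0.05; values are log2, PND21 less PND15). Of those with a higher value at PND21, complement held C3 (1.85), C4b (3.07) and Cfi (1.68), injury and secreted products Havcr1 (2.08), Cp (1.32), Timp1 (1.15), Reg3g (3.07), Fgb (1.62) and Fgg (2.84), and cytokine signalling Il6 (1.12), Il24 (1.66), Il6r (0.85), Jak2 (0.43) and Cxcl1 (1.60). Leukocyte genes were Cd163 (2.25), Gpnmb (2.50), S100a8 (2.34) and S100a9 (2.73). The others were Ace (0.79), Angptl4 (2.33), Egr2 (1.16), Gpx2 (1.52), Myc (1.21), Rprm (2.54) and Xdh (1.2). A lower value at PND21 was found in Egf (-2.27), Il11ra1 (-0.57), Klk1c2 (-2.52) and Plvap (-0.79). Over 18 alternatives, Xdh kept its call in 6, Angptl4 in 6, Egr2 in 5, Timp1 in 5, Il6r in 4 and Plvap in 10, and the remaining 23 in 16 or more. All alternatives kept the filter on PND21 libraries, which favours a larger difference at that age.

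Among the 4 Het libraries of PND21, 1 library lay far from the others (Dixon's ratio) in 5 of the quantities examined, which is 4.13% of them, where chance gives about 1 in 20. Replicate 1 was the highest for Cfi at 1.74 FPKM and the lowest for Lcn2 at 6.81 FPKM. Replicate 2 was the highest for Pnp at 133 FPKM and for the mitochondrial share of reads at 11.8%, and replicate 4 the lowest for Slc22a12 at 178 FPKM.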

How the results depend on the processing

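The count of genes called between Homo and Het, 6267, was 4738 to 7587 over the alternatives and 5039 to 6039 with 1 library left out, within 1.5 times in each (6631 in the fit of both ages, an alternative chosen after seeing the data); only TPM moved the split by over 10 percentage points, to 77.7% rises from 48.9%. Of the named genes, 102 kept direction and side of the threshold wherever they were tested and 16 did not. Pck1 alone changed sign, at -2.27 to 0.063 log2 with 1 library left out (0.063 without PND21_Homo replicate 1, limma adjusted p = 0.911). Xdh passed with TPM (0.52) and array weights (0.38) and was 0.16 to 0.43 with 1 library left out. The 396 genes between ages became 248 with a pseudocount of 0.1 and 180 to 599 with 1 library left out. The mitochondrial share differed by -3.78 to -3.36 percentage points, the share of the 10 most abundant genes by -3.12 to -2.79 and the summed FPKM by -120000 to -102200 with 1 library left out; an exact test of 3 against 3 or 2 against 4 cannot pass 0.05. Lone reads limit low genes: a gene with 0 reads may be present below 3 reads over its group. No paired analysis was possible because the titles carry no replicate numbers shared between the groups.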
